A study of Mus musculus with 20 samples.

Results

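The nuclear genes of respiratory complexes II to V were followed in the livers of mice on 4 diets. Mitochondria make ATP by passing electrons through respiratory complexes and letting the resulting proton gradient turn ATP synthase. Complex II, succinate dehydrogenase, hands electrons from succinate to ubiquinone, complex III hands them from ubiquinol to cytochrome c, complex IV hands them from cytochrome c to oxygen, and complex V is ATP synthase. In the liver this machinery carries the load of fatty acid oxidation, and most of its subunits are encoded in the nucleus, while a few core subunits of complexes III, IV and V come from mitochondrial DNA and were not examined here. Genes were chosen by symbol, as those that start with Sdha to Sdhd, Uqcr, Cox4 to Cox8 or Atp5, plus Cyc1 and Cycs, and this gave 52 of the 18193 genes on the array. They were 8 genes of complex II (4 subunits and the 4 assembly factors Sdhaf1 to Sdhaf4), 9 of complex III, 17 of complex IV, 17 of complex V and Cycs, which encodes the mobile carrier cytochrome c. Of the complex IV genes, 7 are isoforms known from muscle, lung or testis (Cox4i2, Cox6a2, Cox6b2, Cox7a1, Cox7b2, Cox8b and Cox8c), which leaves 40 widely expressed subunits in the 4 complexes. Of 53 protein-coding genes with such symbols in the RefSeq annotation, Cox7b was not analysed here.

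Male C57BL/6J mice were 7 weeks old at the start and stayed on their diet for 12 weeks, with 5 mice and 5 arrays in each group. The CL + AX group received a CL diet with 0.02% astaxanthin, a carotenoid antioxidant, and the CL + VE group received the CL diet with 0.02% vitamin E. The CL group received that diet alone, in which fat gave 60% of the calories and which held sodium cholate (0.5%) and added cholesterol (1.25%), and the NC group received normal CRF-1 chow. Livers were taken after 2 h of fasting. The CL diet differed from chow in fat, cholesterol and cholate at once, and the parts of these cannot be told apart. Values are log2 MAS5 signals of the brightest probe set that names the gene alone, brought to a common distribution by quantile normalization, and a change was called at an adjusted p under 0.05 over all 45037 probe sets. Between the groups a log2 difference of a gene has meaning, whereas the levels of different probe sets cannot be set against each other.

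The arrays themselves differed with diet. The median deposited signal was 26.4 to 27.7 in CL + AX, 17.0 to 20.7 in CL + VE, 19.4 to 24.8 in CL and 13.0 to 18.8 in NC livers, and the log2 ratio of the Gapdh 3′ to 5′ control probe sets, a measure of RNA and labelling quality, was -0.18 to -0.05 in CL + AX, -0.16 to 0.11 in CL + VE, -0.26 to -0.09 in CL and 0.38 to 0.78 in NC livers. The same log2 ratio for the Dap control probe sets was 0.79 to 1.03 in CL + AX, 0.77 to 1.81 in CL + VE and 0.76 to 1.15 in CL livers, against 2.76 to 3.11 in NC livers. The log2 signal of an 18S ribosomal RNA control probe set was 10.70 to 11.65 in CL + AX, 10.44 to 10.81 in CL + VE and 10.07 to 11.45 in CL livers, against 7.74 to 9.18 in NC livers. On all 3 measures the NC arrays stood apart from those of the CL diets, so a difference against NC cannot be told apart from one in the handling of these arrays. The 6 hepatocyte markers averaged 13.27 to 13.32 on the log2 scale in CL and 13.25 to 13.35 in NC livers, and 1 was called higher and 1 lower. All 7 macrophage markers were higher in CL than in NC livers. They averaged 9.37 to 10.59 in CL and 6.61 to 8.47 in NC livers. In addition, 3 of 5 stellate cell, 3 of 4 endothelial and 3 of 5 lymphocyte markers were called higher. Over all genes 12.0% were called higher and 11.3% lower. The cholangiocyte markers averaged 4.58 to 5.64 in CL and 3.47 to 5.01 in NC livers, and these ranges overlapped. Both measured erythroid markers were lower, and the 8 striated muscle markers averaged 2.19 to 2.67 in CL and 2.39 to 3.07 in NC livers. In whole liver, fewer cells of a type and less RNA per cell cannot be told apart, and the part of RNA quality and of cell composition in the results was not tested.

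A subset of the genes was lower on the CL diet, with members in complexes III, IV and V. In CL livers 12 of the 52 genes were lower and 0 were higher than in NC livers, whereas 11.3% of all genes were called lower, 12.0% higher and 23.3% in either direction, so that the share of the 52 called in either direction was near that of all genes. The lower genes were 4 of 9 in complex III (Uqcr11, Uqcr10, Cyc1 and Uqcrc1), 4 of 17 in complex IV (Cox7a2l, Cox5b, Cox6b1 and Cox4i1), 4 of 17 in complex V (Atp5k, Atp5d, Atp5e and Atp5j2) and 0 of 8 in complex II. Without the 7 tissue-restricted isoforms the count in complex IV was 4 of 10, close to the 4 of 9 in complex III. The median log2 fold change was 0.05 in complex II, -0.19 in complex III, -0.13 in complex IV and -0.09 in complex V. Over all genes it was -0.04. Within complex II the 4 subunits had a median of -0.02 and the 4 assembly factors one of 0.08. The falls were small, from 1.11-fold for Cox4i1 to 1.30-fold for Cox7a2l.

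**Figure D1:**
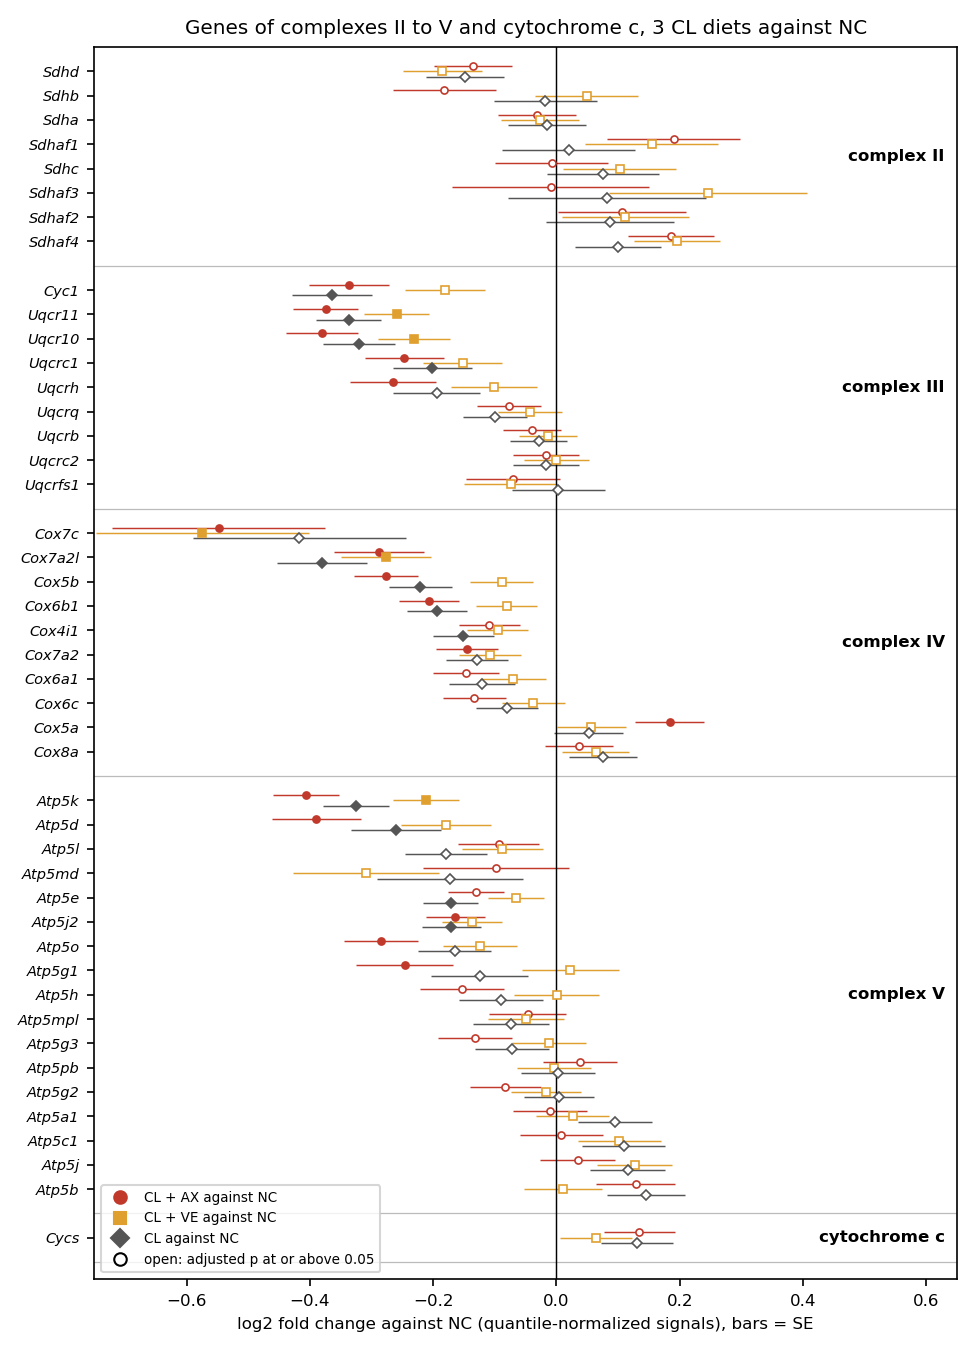
Log2 fold change against NC (horizontal axis, bars give the standard error) of 45 genes, grouped by complex, in CL + AX (circles), CL + VE (squares) and CL (diamonds) livers, 5 mice each, with the 7 tissue-restricted isoforms left out. Filled symbols passed the adjusted p; all but Cox5a in CL + AX lie left of 0 and none belongs to complex II.

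For the genes that the comparison turns on, the DNA before the start site is shown, since respiratory genes are known as targets of NRF1, GABPA and ESRRA. The sequences are the 250 bases upstream of the annotated start in RefSeq (GRCm38.p6), 5′ to 3′ on the gene's strand. Capitals mark matches on either strand to the NRF1 motif (GCGCA and GCGC with any 1 base between them) or to the ETS motif CCGGAAG that GABPA binds. Uqcr11 (chr10:80406822-80407071, minus strand), Uqcr10 (chr11:4704345-4704594, minus strand) and Atp5k (chr5:108434400-108434649, minus strand) were lower in CL livers, and Sdha (chr13:74350241-74350490, minus strand) was not called.
Uqcr11: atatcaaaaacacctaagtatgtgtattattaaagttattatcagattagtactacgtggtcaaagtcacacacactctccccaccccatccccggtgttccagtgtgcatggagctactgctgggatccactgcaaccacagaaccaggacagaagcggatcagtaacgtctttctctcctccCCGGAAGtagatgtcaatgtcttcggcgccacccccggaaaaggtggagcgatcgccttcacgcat
Uqcr10: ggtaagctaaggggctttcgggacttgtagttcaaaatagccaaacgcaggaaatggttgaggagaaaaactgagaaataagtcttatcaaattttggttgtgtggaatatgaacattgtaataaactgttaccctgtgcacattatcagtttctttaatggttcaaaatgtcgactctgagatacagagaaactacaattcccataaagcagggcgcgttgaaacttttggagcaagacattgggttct
Atp5k: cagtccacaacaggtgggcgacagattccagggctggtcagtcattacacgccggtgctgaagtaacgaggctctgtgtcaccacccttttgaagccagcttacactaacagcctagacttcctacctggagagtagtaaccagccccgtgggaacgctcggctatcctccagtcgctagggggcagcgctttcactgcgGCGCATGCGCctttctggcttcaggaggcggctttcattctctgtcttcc
Sdha: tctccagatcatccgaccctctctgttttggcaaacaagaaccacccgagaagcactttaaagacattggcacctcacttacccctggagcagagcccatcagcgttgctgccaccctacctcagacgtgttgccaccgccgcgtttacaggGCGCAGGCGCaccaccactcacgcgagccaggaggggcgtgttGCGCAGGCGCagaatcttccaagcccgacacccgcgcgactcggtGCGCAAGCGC
Uqcr11 held 1 ETS match, Atp5k 1 NRF1 match and Sdha 3 NRF1 matches, and in Uqcr10 neither letter string was found in this window. Windows of this length were at hand for 40 of the 52 genes and for 10 of the 12 genes lower in CL livers. The NRF1 motif stood in 6 of 40 (15%), against 3.86% of 27025 promoters in all, and the ETS motif in 10 of 40 (25.0%), against 7.05%. Among the 10 lower genes NRF1 matched 1 (Atp5k) and ETS matched 3 (Atp5e, Cox6b1 and Uqcr11), while among the other 30 genes they matched 5 and 7. The ERRA motif CAAGGTCA matched 2 of 40 (Atp5g3 and Atp5l; 1.31% of all promoters) and 0 of the 10, the YY1 motif AANATGGC matched 1 of 40 (Sdhaf2; 3.93% of all), and the SP1 motif GGGCGG matched 16 of 40 (32.9% of all). These matches describe letters and are not shown to be bound.

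Uqcr11 encodes a small accessory subunit of complex III and had the smallest adjusted p of the 52 genes between CL and NC. Its log2 signal was 11.84, 11.74, 11.85, 11.76 and 11.74 in CL livers, against 12.17, 12.04, 12.15, 12.10 and 12.16 in NC livers. Every CL mouse was below every NC mouse, with a log2 fold change of -0.34 ± 0.05 (SE) and an adjusted p of 9.36e-05. Uqcr10, another small accessory subunit, read 11.04, 10.99, 11.05, 10.89 and 10.89 in CL livers, against 11.31, 11.22, 11.39, 11.22 and 11.31 in NC livers. The groups did not overlap here either, with a log2 fold change of -0.32 ± 0.06 and an adjusted p of 0.000417, and its 3 probe sets had the same sign.

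Cyc1 encodes cytochrome c1, the subunit that passes electrons on to cytochrome c. It read 11.43, 11.31, 11.42, 11.22 and 11.32 in CL livers, against 11.91, 11.67, 11.62, 11.67 and 11.65 in NC livers, where mouse 1 stood above the other 4. All CL mice were below all NC mice, with a log2 fold change of -0.37 ± 0.06 and an adjusted p of 0.000341. Uqcrc1, a core protein of the matrix side, changed by -0.20 ± 0.06 (adjusted p = 0.0306) with overlapping groups, and its call was lost when NC 1, 3 or 4 or CL 3, 4 or 5 was left out (highest adjusted p = 0.0828). The other core protein Uqcrc2 had a log2 fold change of -0.02 (adjusted p = 0.881) and the Rieske iron-sulfur protein Uqcrfs1, which accepts electrons from ubiquinol, had 0.00 (adjusted p = 0.986). Its CL values were 11.62, 11.28, 11.54, 11.59 and 11.54, against 11.44, 11.50, 11.52, 11.48 and 11.61 in NC livers, and the groups overlapped, with CL mouse 2 apart from the rest. The small subunits Uqcrh, Uqcrq and Uqcrb had -0.19 (adjusted p = 0.0583), -0.10 (adjusted p = 0.217) and -0.03 (adjusted p = 0.749), so 8 of the 9 genes of complex III had a negative sign and 4 passed.

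In complex IV, Cox7a2l had the largest change among the 4 called genes. It read 10.33, 10.43, 10.42, 10.37 and 10.24 in CL livers, against 10.76, 10.95, 10.89, 10.58 and 10.53 in NC livers. The groups did not overlap, although NC mice spread over a wide range (log2 fold change -0.38 ± 0.07, adjusted p = 0.000722, all 3 probe sets of one sign). Cox5b, a matrix-side subunit, read 12.48, 12.40, 12.50, 12.34 and 12.39 in CL livers, against 12.78, 12.60, 12.57, 12.60 and 12.66 in NC livers, again without overlap. Its log2 fold change was -0.22 ± 0.05 (adjusted p = 0.00385), and 5 of its 6 probe sets had that sign. Cox6b1, a subunit of the intermembrane side, changed by -0.19 ± 0.05 (adjusted p = 0.00737). Cox4i1, the liver form of the regulatory subunit that binds ATP, changed by -0.15 ± 0.05 with overlapping groups (adjusted p = 0.0367) and its call was lost without any 1 of NC 1, 3 and 5 and CL 1, 2, 3 and 5 (highest adjusted p = 0.0894). Cox5a, the partner of Cox5b on the matrix side, had 0.05 (adjusted p = 0.603) and Cox8a 0.08 (adjusted p = 0.402). Cox6a1, Cox6c and Cox7a2 lay between -0.13 and -0.08, the dim Cox7c had -0.42 (adjusted p = 0.105), and none of these passed.

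In complex V, Atp5k, subunit e of the membrane part, where ATP synthase dimers meet, read 11.56, 11.43, 11.62, 11.42 and 11.45 in CL livers, against 11.90, 11.83, 11.85, 11.79 and 11.74 in NC livers. The groups did not overlap (log2 fold change -0.33 ± 0.05, adjusted p = 0.000149), and its 3 probe sets had the same sign. Atp5d and Atp5e, the delta and epsilon subunits of the rotating central stalk, changed by -0.26 ± 0.07 (adjusted p = 0.0149) and -0.17 ± 0.05 (adjusted p = 0.00991). The call of Atp5d was lost without CL 4 (adjusted p = 0.0502). Atp5j2, subunit f of the membrane part, changed by -0.17 ± 0.05 (adjusted p = 0.0155), but 1 of its 3 probe sets, the next brightest, had 0.03. The large subunits of the catalytic head did not pass the test: Atp5a1 (alpha) had 0.10 (adjusted p = 0.319), Atp5b (beta) 0.15 (adjusted p = 0.127) and the gamma shaft Atp5c1 0.11 (adjusted p = 0.310). For Atp5a1 and Atp5c1 only the brightest probe set had this sign, of 3 and of 2. Atp5b read 12.68, 12.54, 12.66, 12.71 and 12.72 in CL livers, against 12.41, 12.48, 12.51, 12.51 and 12.68 in NC livers, and the ranges overlapped only through NC mouse 5. The 3 genes of subunit c, which code for the same mature protein of the rotor ring, had -0.12 (Atp5g1), 0.00 (Atp5g2) and -0.07 (Atp5g3), and none passed. The remaining genes Atp5h, Atp5j, Atp5l, Atp5md, Atp5mpl, Atp5o and Atp5pb lay between -0.18 and 0.12, none past the threshold. Atpif1, which encodes the inhibitor of ATP synthase and lies outside the 52 genes by its symbol, had 0.30 (adjusted p = 0.199).

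Complex II showed no call. Sdha, the flavoprotein that oxidizes succinate, read 11.64, 11.39, 11.61, 11.39 and 11.49 in CL livers, against 11.73, 11.46, 11.47, 11.44 and 11.50 in NC livers, and the groups overlapped throughout (log2 fold change -0.02 ± 0.06, adjusted p = 0.914). Sdhb, the iron-sulfur subunit, had -0.02 ± 0.08 (adjusted p = 0.925), and the membrane anchors Sdhc and Sdhd had 0.08 (adjusted p = 0.652) and -0.15 (adjusted p = 0.121). The 4 assembly factors lay between 0.02 and 0.10, and none passed. Cycs, cytochrome c, had 0.13 (adjusted p = 0.134), with 12.45, 12.41, 12.51, 12.62 and 12.56 in CL livers and 12.37, 12.42, 12.35, 12.32 and 12.42 in NC livers, and the groups overlapped only through CL mouse 2. For Cycs 2 of 4 probe sets had this sign.

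**Figure D2:**
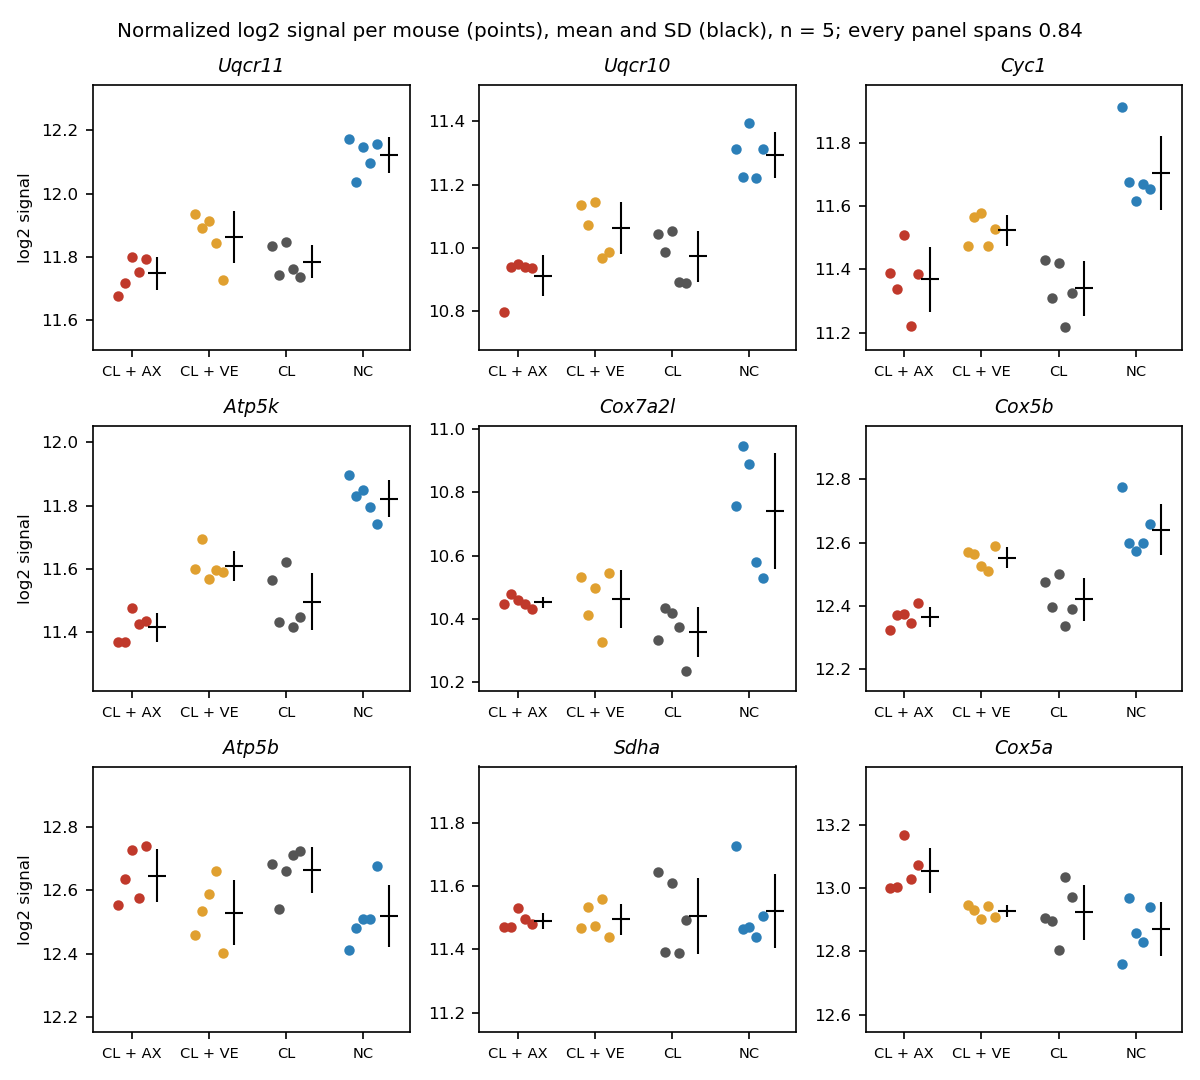
Log2 signal after quantile normalization (vertical axis) of 9 genes in each of 5 mice of the CL + AX, CL + VE, CL and NC groups, with the mean and SD in black, on axes that span the same log2 range. The first 6 genes were called lower in CL than in NC livers, and Atp5b, Sdha and Cox5a were not.

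The CL + AX group was compared with NC on the same NC arrays, so the values are set beside those of CL and not counted as further support. In CL + AX livers 15 of the 52 genes were lower and 1 was higher than in NC livers, whereas 11.3% of all genes were lower and 12.0% higher. The lower genes were 5 in complex III, 5 in complex IV and 5 in complex V, and 0 in complex II, and the median log2 fold change of complex III was -0.25, against -0.02 over all genes. Uqcr11 read 11.68, 11.72, 11.80, 11.75 and 11.79 in CL + AX livers, below all NC mice, with a log2 fold change of -0.37 ± 0.05 (adjusted p = 2.96e-05). Atp5k read 11.37, 11.37, 11.48, 11.43 and 11.44 in CL + AX livers, below all NC mice, with a log2 fold change of -0.41 ± 0.05 (adjusted p = 1.41e-05). Uqcr10 (-0.38), Cyc1 (-0.34), Cox5b (-0.28), Atp5d (-0.39), Cox6b1 (-0.21), Cox7a2l (-0.29), Uqcrc1 (-0.25) and Atp5j2 (-0.16) were also lower in CL + AX than in NC livers. The call of Atp5j2 was lost without NC 3 or CL + AX 2 (highest adjusted p = 0.0670).

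The other 5 lower genes did not pass in CL livers. They were Uqcrh (-0.27, adjusted p = 0.00965), the hinge protein of complex III, Atp5o (-0.29, adjusted p = 0.00161), the stator subunit that holds the catalytic head, Atp5g1 (-0.25, adjusted p = 0.0325), Cox7a2 (-0.15, adjusted p = 0.0486) and Cox7c (-0.55, adjusted p = 0.0303). The difference between CL + AX and CL was not past the threshold for any of them (adjusted p from 0.711 for Atp5o to 0.981 for Cox7a2), so the diets were not shown to differ. The call of Cox7a2 held in 2 of 20 fits with 1 array left out, those without NC 4 and without CL + VE 5 (highest adjusted p = 0.113). The call of Atp5g1 was lost without NC 1, 3 or 4 or CL + AX 1, 2 or 4 (highest adjusted p = 0.101), and that of Cox7c without NC 1 or 2 or CL + AX 2 or 5 (highest adjusted p = 0.0942). Cox5a was the 1 gene higher in CL + AX than in NC livers, at 0.18 ± 0.06 (adjusted p = 0.0247), with 13.00, 13.00, 13.17, 13.03 and 13.07 in CL + AX livers, against 12.76, 12.97, 12.86, 12.83 and 12.94 in NC livers, and no overlap. The call was lost without NC 1 or 4 or CL + AX 3 or 5 (highest adjusted p = 0.0730). Its direction turned under another scaling of the arrays, to -0.22 with the trimmed mean and -0.50 with median centring.

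In CL + VE livers 6 of the 52 genes were lower and 1 was higher than in NC livers, beside 7.27% of all genes lower and 10.2% higher. Uqcr11 read 11.94, 11.89, 11.91, 11.85 and 11.73 in CL + VE livers, still below all NC mice (log2 fold change -0.26 ± 0.05, adjusted p = 0.00186). Uqcr10 (-0.23, adjusted p = 0.00947), Atp5k (-0.21, adjusted p = 0.00968) and Cox7a2l (-0.28, adjusted p = 0.0135) were lower too, the last with overlapping groups. Cox7c (-0.57, adjusted p = 0.0296), a subunit of complex IV read from a dim probe set, lost its call without NC 1 or 2 or CL + VE 4 or 5 (highest adjusted p = 0.0926). Cyc1 had -0.18 and did not pass (adjusted p = 0.0703), with 11.47, 11.56, 11.58, 11.47 and 11.53 in CL + VE livers, below all NC mice. Cox5b had -0.09 (adjusted p = 0.298) and Cox6b1 -0.08 (adjusted p = 0.327), and the median log2 fold change of complex III was -0.10, against 0.00 over all genes.

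No gene passed the adjusted p between the diets that share the CL base. Between CL + AX and CL, limma called 0 of the 52 genes, as it did of all 18193 (0%), and at an unadjusted p under 0.05 there were 1 higher (Cox5a, 0.13, adjusted p = 0.633) and 0 lower genes, beside 4.03% and 4.02% of all genes. Between CL + VE and CL it also called 0 of the 52 and of all genes (0%), and at the unadjusted p there were 6 higher and 2 lower genes, beside 4.85% and 2.70% of all genes. The 4 genes with the smallest p were Cyc1 (0.18 ± 0.06, adjusted p = 0.465), Cox6a2 (-0.66, adjusted p = 0.481), Cox8b (2.24, adjusted p = 0.502) and Cox5b (0.13 ± 0.05, adjusted p = 0.537). Cyc1 ran from 11.47 to 11.58 in CL + VE, against 11.22 to 11.43 in CL livers. Cox5b ran from 12.51 to 12.59 in CL + VE, against 12.34 to 12.50 in CL livers. Neither difference passed the correction.

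The direct comparison of CL + AX with CL + VE gave 0 calls of 52 and of all genes (0%) by limma. At the unadjusted p, 12 genes were lower and 3 higher in CL + AX, beside 6.59% and 3.66% of all genes. The lower ones were 5 of complex V, 4 of complex III, 2 of complex IV and 1 of complex II. Cox5b read 12.32, 12.37, 12.38, 12.35 and 12.41 in CL + AX, against 12.57, 12.56, 12.53, 12.51 and 12.59 in CL + VE livers (log2 fold change -0.19 ± 0.05, adjusted p = 0.225). Atp5k had -0.19 ± 0.05 (adjusted p = 0.225), Atp5g1 -0.27 ± 0.08 (adjusted p = 0.255) and Atp5d -0.21 ± 0.07 (adjusted p = 0.350). The methods' t-test also called 0 of the 52 genes after adjustment in all 3 of these comparisons.

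How far the genes as a group moved depended on how the arrays were brought to a common level. In the signals as deposited the median log2 difference between CL and NC livers was 0.39 over all genes and 0.05 over the 52. With any 1 factor per array the 52 genes therefore lay 0.34 below the median gene, whereas quantile normalization, which also evens out the spread of bright and dim probe sets, placed them 0.06 below it. Between CL and NC, quantile normalization called 0 genes higher and 12 lower, trimmed-mean scaling 1 higher and 30 lower (15.2% and 10.2% of all genes), median centring 0 higher and 38 lower (9.37% and 15.2%) and the signals as deposited 4 higher and 0 lower (28.2% and 1.17%). All 12 genes called lower had a negative value under each of these. Between CL + AX and NC, 10 of the 15 lower genes were still negative as deposited, and Atp5g1, Atp5j2, Atp5o, Cox7a2l and Cox7c were not. Against NC, CL + AX livers had 0 higher and 41 lower genes with median centring (7.55% and 21.3% of all genes), 3 and 38 with the trimmed mean (16.7% and 10.2%) and 9 and 0 as deposited (42.7% and 1.15%). CL + VE livers had 1 higher and 26 lower with median centring (8.87% and 8.70%), 2 and 22 with the trimmed mean (12.8% and 6.87%) and 1 and 0 as deposited (12.0% and 1.57%). Between CL + AX and CL + VE, median centring called 0 higher and 28 lower (0.0550% and 6.11%), the signals as deposited 2 higher and 0 lower (3.75% and 0.0165%) and the trimmed mean 0 of the 52 and of all genes (0%), so the direction of that comparison rests on the scaling.

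**Figure D3:**
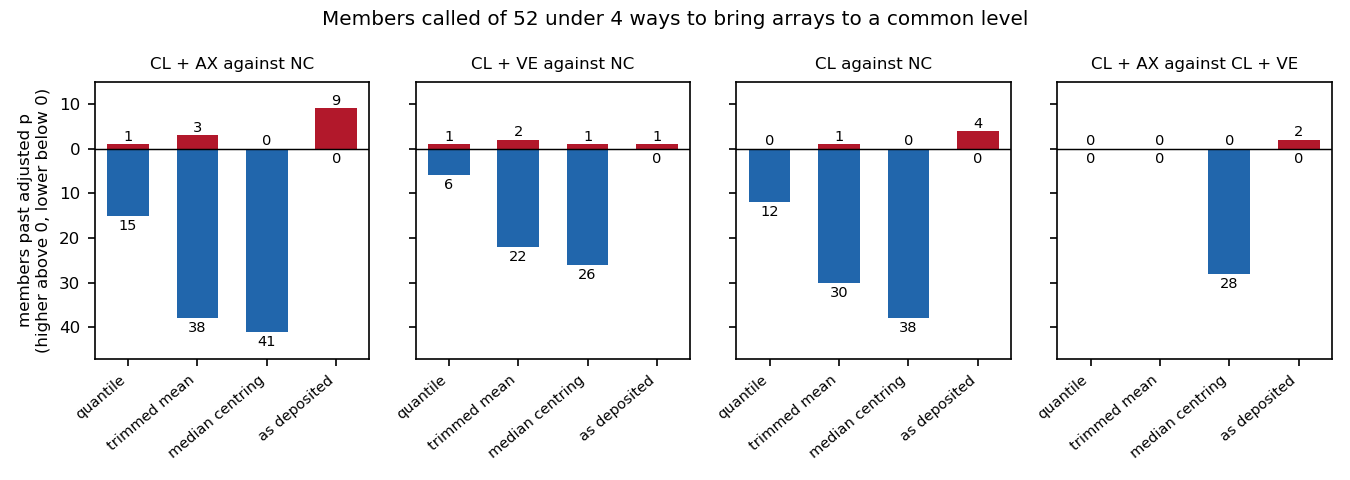
Number of the 52 genes past an adjusted p of 0.05 (vertical axis, higher above 0 and lower below it) under 4 ways of scaling the arrays (horizontal axis), in 4 comparisons. The bars between CL and NC run from 38 lower under median centring to 4 higher as deposited.

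Comparisons of the genes with one another do not depend on 1 factor per array. Each array was therefore set to its own mean over the 40 widely expressed subunits, a setting added after the data were seen. It fixes the mean change of these 40 subunits at 0, so positive and negative values among them must balance. The values tell only how a gene moved relative to the others. Relative to the mean of the 40 subunits, 6 genes were lower and 13 higher in CL than in NC livers, beside 2.22% and 34.9% of all genes. The lower genes were Uqcr11 (-0.25, adjusted p = 0.000504), Cyc1 (-0.22), Atp5k (-0.20), Cox5b (-0.18), Cox6b1 (-0.17) and Cox4i1 (-0.14). The higher genes included 5 of 8 in complex II (Sdhc and the 4 assembly factors), 5 of 17 in complex V (Atp5a1, Atp5b, Atp5c1, Atp5g2 and Atp5j, from 0.18 to 0.22), Cycs (0.19), Cox8a (0.26) and Cox7a1 (1.15). With median centring Atp5a1, Atp5b and Atp5c1 were negative. In CL + AX livers 7 were lower and 16 higher than in NC (2.08% and 44.0% of all genes), and in CL + VE livers 1, Uqcr11 (-0.20, adjusted p = 0.00435), was lower and 8 were higher (2.03% and 27.6%). Between CL + AX and CL + VE 1 gene, Cox6a2, was higher and 0 were lower (0.561% and 0.00550%).

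The distance between complexes within an array, which 1 factor per array cannot move, was compared next. In the signals as deposited, only that of complex III to complex II separated all 3 CL diets from chow. The distance was taken as the mean log2 signal of the widely expressed subunits of one complex minus that of another. Only its difference between groups has meaning. The subunits of complex II were dimmer. After quantile normalization they averaged 11.13 in NC livers, against 11.94 in complex III, 11.78 in complex IV and 11.95 in complex V. A shift that varies with brightness can therefore move these distances, and its part was not tested. Complex III minus complex II was 0.67, 0.68, 0.65, 0.65 and 0.67 in CL + AX, 0.65, 0.70, 0.78, 0.62 and 0.77 in CL + VE and 0.63, 0.70, 0.59, 0.67 and 0.64 in CL livers, against 0.93, 0.81, 0.85, 0.88 and 0.85 in NC livers. No mouse on a CL diet reached the lowest NC mouse. Complex V minus complex II averaged 0.77 ± 0.02 in CL + AX, 0.78 ± 0.07 in CL + VE and 0.75 ± 0.03 in CL livers, against 0.88 ± 0.02 in NC livers (SD, n = 5 each), and only CL + VE overlapped NC, through mouse 5 at 0.88. Complex IV minus complex II averaged 0.56 ± 0.04 in CL + AX, 0.53 ± 0.13 in CL + VE and 0.50 ± 0.08 in CL livers, against 0.70 ± 0.05 in NC livers, and CL + VE alone overlapped NC, through mouse 5 at 0.71. Complex III minus complex V averaged -0.10 ± 0.03 in CL + AX, -0.07 ± 0.04 in CL + VE and -0.10 ± 0.02 in CL livers, against -0.02 ± 0.03 in NC livers, and CL + VE alone overlapped NC. Complex IV minus complex V overlapped NC (-0.21 to -0.13) in every diet, at -0.28 to -0.17 in CL + AX, -0.38 to -0.18 in CL + VE and -0.32 to -0.15 in CL livers. After quantile normalization complex III minus complex II ran from 0.58 to 0.73 in CL, against 0.77 to 0.86 in NC livers, CL + VE overlapped NC with a highest value of 0.80, and for complexes IV and V minus complex II the CL and NC ranges overlapped.

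**Figure D4:**
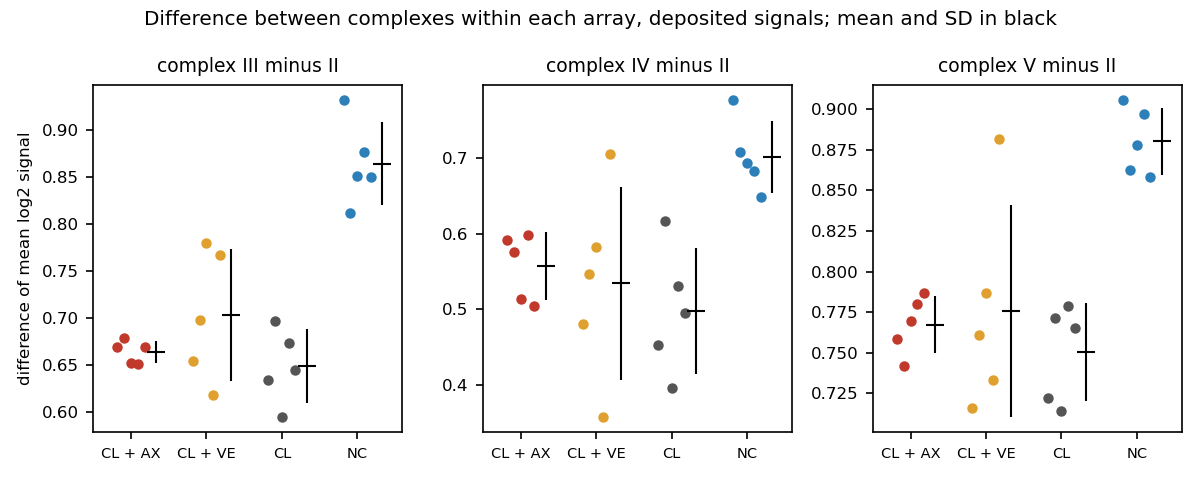
Mean log2 signal of the widely expressed subunits of complexes III, IV and V minus that of complex II in each array (vertical axis, signals as deposited), for 5 mice in each of the CL + AX, CL + VE, CL and NC groups, with the mean and SD in black. For complex III all 15 arrays of the CL diets lie below the 5 NC arrays.

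The tissue-restricted isoforms of complex IV were dim. The mean signals of the 7 lay between percentiles 3.99 and 74.9 of all probe sets, while the 39 widely expressed subunits other than Cox7c lay at percentile 96.5 or above. Cox7c was at percentile 64.2. Cox7a1, the heart and muscle form of subunit 7a, read 5.37, 5.11, 5.49, 5.19 and 5.70 in CL + VE livers and 4.90, 5.51, 5.28, 5.29 and 5.29 in CL livers, against 4.04 to 5.05 in NC livers. It was called in CL + VE (0.76 ± 0.25, adjusted p = 0.0423), in 9 of 20 fits with 1 array left out (lost without NC 1, 2 or 4, CL 3, 4 or 5, CL + AX 5 or CL + VE 1, 3, 4 or 5, highest adjusted p = 0.115), and not in CL livers (0.65, adjusted p = 0.0758). Cox6a2, the muscle form of subunit 6a, was lower in CL + VE than in NC livers (-0.79 ± 0.24, adjusted p = 0.0300) and had -0.13 in CL livers. The call of Cox6a2 was lost without NC 2 or 4 or CL + VE 2 or 4 (highest adjusted p = 0.0909). Its widely expressed counterpart Cox6a1 had -0.07 in CL + VE and -0.12 in CL livers. Cox4i2, Cox6b2, Cox7b2, Cox8b and Cox8c were not called in any comparison after quantile normalization. Relative to the mean of the 40 subunits, Cox4i2 (1.14, adjusted p = 0.0203) and Cox8c (0.54, adjusted p = 0.0158) were higher in CL + AX than in NC livers. So were Cox7a1 (1.26, adjusted p = 0.000402) and Cox6a2 (0.65, adjusted p = 0.0463), beside 44.0% of all genes. Cox8b ranged from -0.37 to 4.46 over the arrays.

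Genes that assemble or serve the complexes were examined beside the subunits. Of the 6 assembly factors of complex III, 3 were lower and 0 higher in CL than in NC livers (11.3% and 12.0% of all genes), with a median log2 fold change of -0.51. Bcs1l, which inserts the Rieske protein, had -0.68 (adjusted p = 0.000482), and Uqcc1 and Uqcc3, which help cytochrome b, had -0.61 (adjusted p = 0.000199) and -0.42 (adjusted p = 0.000151). Bcs1l read 6.93, 6.21, 6.46, 6.43 and 6.80 in CL livers, against 7.23, 7.35, 7.17, 7.25 and 7.25 in NC livers, with no overlap. In CL + AX livers 5 of the 6 were lower than in NC (11.3% of all genes), and in CL + VE livers 3 were (7.27%).

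Of 23 measured factors of complex IV assembly, 7 were lower and 2 higher in CL than in NC livers, beside 11.3% and 12.0% of all genes. Cox10, which makes heme O on the way to heme A, had -0.84 (adjusted p = 7.18e-05), with 6.95, 6.78, 6.76, 6.81 and 6.69 in CL livers, against 7.66, 7.94, 8.04, 7.45 and 7.14 in NC livers. The groups did not overlap and the NC mice spread widely. Cmc2 had -0.75 (adjusted p = 0.000117) and Higd1a -0.62 (adjusted p = 4.09e-06, a sign that 1 of its 3 probe sets had), while Sco2, which carries copper to complex IV, was higher at 0.71. Of 8 measured genes that bring electrons to ubiquinone beside complex II, 2 were lower and 2 higher (11.3% and 12.0% of all genes). The assembly factors Sdhaf1 to Sdhaf4 were counted with complex II and not here. Etfb, the beta subunit of the flavoprotein that takes electrons from fatty acid oxidation, was lower (-0.34, adjusted p = 5.31e-05). Sqor, which oxidizes sulfide, was higher (0.59, adjusted p = 0.00128, 1 of its 2 probe sets).

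Of 10 genes of complex V assembly and ATP export, 3 were higher and 2 lower in CL than in NC livers, beside 12.0% and 11.3% of all genes. Slc25a4, the muscle and heart form of the carrier that swaps ATP for ADP, read 7.32, 8.15, 7.35, 7.35 and 7.30 in CL livers, against 6.18, 6.39, 6.69, 6.51 and 6.29 in NC livers, without overlap (1.08, adjusted p = 0.000344). Tmem70, an assembly factor of ATP synthase, was higher (0.36, adjusted p = 0.00103) and the outer membrane channel Vdac3 lower (-0.34, adjusted p = 0.00481). Of 15 genes of heme and cofactor supply 5 were lower and 3 higher, against the same shares of all genes. Cox10 and Cox15 were listed both here and under complex IV assembly, so the counts of these lists are not separate. Of 15 regulators of mitochondrial biogenesis, 5 were lower and 2 higher, again beside 11.3% and 12.0% of all genes: Polrmt, the mitochondrial RNA polymerase (-0.55, adjusted p = 1.41e-05), Polg2 (-0.79), Twnk, the mitochondrial DNA helicase (-0.57), Tfb1m (-0.57) and the nuclear receptor Esrra (-0.66) were lower, and Gabpa (0.22) and Yy1 (0.29) higher, each with probe sets of both signs.

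Neighbouring families showed where complexes II to V stood. In CL against NC livers 14 of 36 complex I subunits were lower and 2 higher, with a median of -0.16, and 35 of 76 mitochondrial ribosomal proteins were lower and 0 higher, with a median of -0.19. Of 43 cytosolic ribosomal proteins 7 were lower and 2 higher, with a median of -0.01, and of all genes 11.3% were lower and 12.0% higher. The median over the 52 genes was -0.10, and that of complex III was -0.19. Among the 40 widely expressed subunits alone, 12 were lower and 0 higher, with a median of -0.12. In CL + AX against CL + VE livers 13 of 36 complex I subunits had an unadjusted p under 0.05 and a lower value in CL + AX, beside 6.59% of all genes, and 0 passed the adjusted p.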

How the data were processed

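Total RNA of each liver was labelled and hybridized to 1 Affymetrix GeneChip Mouse Genome 430 2.0 array per mouse (20 arrays). The authors computed the deposited intensity values with Microarray Suite 5.9 (MAS5), 1 linear signal per probe set, after scanning with GeneChip Operation Software 1.4; their notes also name Subio platform 1.19. Median intensity still differed between the deposited arrays, so scaling can change direction and calls, which is why quantile normalization of log2 signals was used and others were tried (none, median centring, a mean trimmed by 0.02 at each end). The order of labelling and hybridization is not given in the sources used here. Each mouse gave its own RNA on 1 array, so the p-values rest on the spread between mice together with that of labelling and array. They do not account for a difference in handling between the groups. The number of arrays limits the precision: the within-group SD of the 40 widely expressed subunits had a median of 0.072 on the log2 scale. The table holds no flag for saturated or undetected probe sets.

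Of 45101 probe sets 64 controls were removed. Of the 45037 left, 34945 name 1 gene, 932 several and 9160 none, by the platform annotation. A gene was read from its brightest probe set that names it alone. The 52 genes had 102 such probe sets, and 32 genes had several. The 4 groups were fitted in 1 model in limma 3.58.1 under R 4.3.3, with a variance prior that follows the mean signal and 16 residual degrees of freedom, and p-values were adjusted by Benjamini-Hochberg over all probe sets. The fit was tested on simulated data. List medians and counts carry no test. The genes and lists were chosen with earlier results of these data known. Named genes were the called members (up to 10 in each direction, or the 4 with the smallest p where none passed), core subunits, isoform families and up to 3 genes of each pathway list with the smallest p; the text gives a part of these. Further alternatives were a filter at the median signal, the mean of all probe sets of a gene, leaving out probe sets with the suffixes _s_at and _x_at, a replicate block, the methods' t-test, no variance trend, and leaving out each array. Promoter windows come from RefSeq (GRCm38.p6).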

Additional observations from a re-analysis of the deposited data

Results flagged for a closer look

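In 208 groups of 5 mice (52 genes in 4 diets) 1 mouse stood apart from the other 4 in 12, where chance gives about 1 in 20. The value of the mouse that stood apart is given first on the log2 scale, beside the range of the other 4. In CL + AX livers these were Uqcr10 in mouse 1 (10.80, others 10.94 to 10.95) and Uqcrb in mouse 3 (13.54, others at 13.48). In CL + VE livers they were Atp5g3 in mouse 4 (12.75, others 13.01 to 13.08), Atp5k in mouse 2 (11.69, others 11.57 to 11.60) and Cox7a2 in mouse 5 (12.94, others 12.78 to 12.82). In CL livers they were Cox6b2 in mouse 2 (6.01, others 4.24 to 4.59), Cox6c in mouse 1 (12.61, others 12.47 to 12.50), Cox8a in mouse 4 (11.26, others 11.37 to 11.41) and Uqcrfs1 in mouse 2 (11.28, others 11.54 to 11.62). In NC livers, mouse 1 stood apart in all 3: Cyc1 (11.91, others 11.62 to 11.67), Sdha (11.73, others 11.44 to 11.50) and Atp5md (11.57, others 11.87 to 11.98). Without NC mouse 1 the call of Cyc1 between CL and NC held.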

How the results depend on the processing

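Scaling decided how many of the 52 genes were called. With the signals as deposited, 9 genes were called between CL + AX and NC, 1 between CL + VE and NC, 4 between CL and NC and 2 between CL + AX and CL + VE, all higher. Median centring called 41, 27, 38 and 28 in the same order, and trimmed-mean scaling 41, 24 and 31 in the first 3, nearly all lower. With arrays set to the mean of the 40 subunits, a setting added after seeing the data, the counts were 23, 9, 19 and 1. Without the variance trend they were 10, 3 and 6 against NC. Between CL + VE and NC the filter at the median signal gave 11 and the methods' t-test 3. Under the 4 scalings by 1 factor the median of the 52 genes minus that of all genes was -0.44 for CL + AX, -0.30 for CL + VE and -0.34 for CL against NC, -0.11 for CL + AX and 0.091 for CL + VE against CL, and -0.18 for CL + AX against CL + VE. The cause of these changes was not tested.

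Directions of single genes turned as follows, on the log2 scale. Between CL and NC, median centring gave Atp5a1 -0.31, Atp5b -0.30, Atp5c1 -0.31, Atp5g2 -0.27, Atp5j -0.27, Atp5pb -0.47, Cox5a -0.43, Cycs -0.30 and Uqcrfs1 -0.34, trimmed-mean scaling gave Atp5pb -0.33 and Cox5a -0.28, and leaving out probe sets with the suffixes _s_at and _x_at gave Atp5j2 0.031. Between CL + AX and NC, the signals as deposited gave Atp5g1 0.071, Atp5j2 0.0063, Atp5o 0.010, Cox6a2 0.72, Cox7a2l 0.071, Cox7c 0.21, Cox8c 0.61, Sdhaf3 0.60 and Sdhc 0.37. Median centring gave Atp5b -0.51, Atp5c1 -0.59, Atp5j -0.53, Atp5pb -0.63, Cox5a -0.50, Cox8a -0.46 and Cycs -0.48, and trimmed-mean scaling gave Atp5b -0.22, Atp5c1 -0.31, Atp5j -0.24, Atp5pb -0.34, Cox5a -0.22 and Cycs -0.19. The mean of all probe sets gave Atp5g1 0.073, and the mean of the 40 subunits gave Atp5g1 0.00026, Atp5g2 0.17, Atp5mpl 0.19, Cox6a2 0.65, Cox7a2l 0.00020, Cox7c 0.14, Cox8c 0.54, Sdhaf3 0.53 and Sdhc 0.30. Between CL + VE and NC, median centring gave Atp5b -0.30.

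Leaving out 1 array gave 12 to 17 calls for CL + AX, 5 to 8 for CL + VE and 10 to 14 for CL against NC, and 0 in the other comparisons. The median of the 52 genes minus that of all genes then ran from -0.09 to -0.05, from -0.06 to -0.04 and from -0.10 to -0.05 against NC, from -0.04 to -0.0098 for CL + AX and from -0.0041 to 0.03 for CL + VE against CL, and from -0.03 to -0.0048 for CL + AX against CL + VE. Same-numbered arrays of different groups had a median correlation of deviations of 0.038, with 7 of 30 pairs over 0.1. Arrays of different number had a median of -0.0054, with 11 of 120 pairs over 0.1. Whether the numbers pair the mice or mark a shared batch was not tested. A replicate block gave 16, 10 and 13 calls for CL + AX, CL + VE and CL against NC and 0 in the other comparisons.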
